A study of Oryza sativa with 6 samples.

Results

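The Aux/IAA repressors were followed here as 10 rice loci, chosen by gene ID from the list that defines the set, among the 37938 loci of the deposited count table. All 10 IDs were found, and 2 of them have names given with the list, IAA11 (Os03g0633500) and IAA13 (Os03g0742900); the other 8 are called by ID, since the files pair no ID with a name. Messenger RNA came from roots of IR29, a rice cultivar that the series describes as sensitive to salinity, and all 6 libraries share this genotype. The groups were salt L-type lateral roots, control L-type lateral roots, salt S-type lateral roots, control S-type lateral roots, salt nodal roots and control nodal roots. Salt plants received 50 mM NaCl for 7 days, control plants are labelled only as controls over the same time, and each group was 1 library. The labels do not give the age of the plants or the number pooled in a library.

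Aux/IAA proteins are short-lived nuclear repressors. They bind auxin response factors (ARF), the transcription factors that read the auxin signal, and bring corepressors of the TOPLESS family to the genes that those factors occupy. Auxin joins an Aux/IAA protein to a receptor of the TIR1/AFB family, which marks the repressor for destruction, and many Aux/IAA genes are themselves induced by auxin. In rice, dominant mutations that stabilise IAA11 or IAA13 impair the start of lateral roots. Nodal roots are the shoot-borne axes of the rice root system, S-type laterals are its short branches and L-type laterals its longer ones.

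Each library held 3839177 to 4249872 reads on loci. Values are given as scaled reads, meaning reads divided by trimmed-mean (TMM) factors to a common total of 4013580, or as FPKM, the authors' measure per transcript length, which is the only scale used here to compare 1 gene with another. With 1 library per group there is no spread between replicates. A comparison of 2 libraries has no test and carries a 95% counting interval only, and the limma fit over all 6 libraries takes its error from how unequal a difference is between treatments or root types, not from the variation between plants. These are bulk samples, so fewer cells of a type and less RNA per cell cannot be told apart.

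Marker loci, listed by ID from general knowledge, were read beside the members. All 4 root loci had reads in every library, with summed levels of 7036.2 to 31527.4 scaled reads, but they did not move together. Os02g0662000 had 1.3 scaled reads in the salt S-type library against 230.1 in control S-type roots, and Os04g0684300 had 32.3 against 646.2. In the same libraries Os02g0745100 had 13354.5 against 7948.0 and Os03g0107300 had 18139.4 against 9037.8. The 4 loci of dividing cells summed to 31.0 scaled reads in salt S-type and 418.5 in control S-type roots, and to 330.6 to 1237.1 in the other 4 libraries; none was at 0. The 7 loci of green tissue summed to 509.3 scaled reads in salt L-type and 1286.0 in salt nodal roots, against 11.6 to 73.2 in the other 4 libraries; 0 of them had no reads in salt L-type and salt nodal roots, and 1 to 3 had none in each of the others.

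The members spanned a wide range of levels, and a pair of them made up most of the FPKM summed over these 10 loci in every library; the other Aux/IAA loci of rice are not in that sum. IAA13 (chromosome 3, 30476517 to 30483289) and Os05g0230700 (chromosome 5, 7950914 to 7954374) had the highest FPKM of the 10 in 5 of the 6 libraries, with IAA13 first. In L-type roots they were close, at 272.0 against 260.0 FPKM under salt and 417.0 against 404.0 under control. The FPKM of IAA13 is uncertain, since its deposited span is shared with other loci. In the salt S-type library the order changed. There Os05g0230700 led with 273.0 FPKM, Os01g0178500 came next with 29.6 FPKM and IAA13 had 17.8 FPKM. The 10 members together summed to 757.8 FPKM in salt L-type against 996.0 in control L-type roots, to 348.4 in salt S-type against 762.5 in control S-type roots, and to 1232.7 in salt nodal against 1739.3 in control nodal roots. Os05g0230700 made up 78.3% of that sum in salt S-type roots and 19.7% to 40.6% in the other libraries. IAA13 made up 5.11% in salt S-type roots and 35.9% to 53.4% elsewhere.

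**Figure D1:**
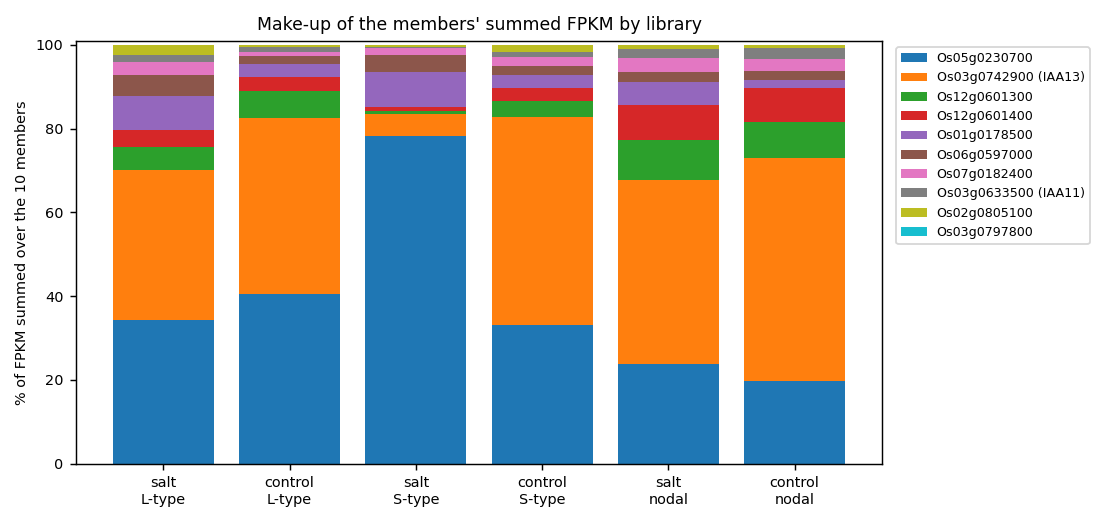
Share of the FPKM summed over the 10 members (y axis, %) in each of the 6 libraries (x axis), with 1 colour per locus. Os05g0230700 takes 78.3% of the salt S-type bar, where IAA13 takes 5.11%.

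IAA13, the member with the highest FPKM in nodal roots, had 484.5 scaled reads in salt L-type, 492.4 in control L-type, 47.8 in salt S-type, 739.2 in control S-type, 1172.7 in salt nodal and 1777.6 in control nodal roots. Both nodal libraries lay above all 4 lateral root libraries, and salt S-type roots stood lowest by a wide margin. This locus shares its deposited start and end with Os03g0742800 (109.2 to 175.5 scaled reads) and Os03g0742850 (0.0 to 0.9), so its own count is uncertain. Its FPKM per scaled read also varied 2.27-fold between libraries, against 1.11 to 1.14-fold for the other 9 members.

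IAA11 (chromosome 3, 24198633 to 24202183) was also highest in nodal and lowest in salt S-type roots. It had 50.6 scaled reads in salt L-type, 48.5 in control L-type, 2.6 in salt S-type, 35.8 in control S-type, 101.1 in salt nodal and 168.6 in control nodal roots. The salt S-type value is 2 reads, with an exact Poisson interval of 0.3 to 9.3 scaled reads. The nodal libraries were above every lateral root library, and their intervals did not meet those of the lateral roots.

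Os12g0601300 (chromosome 12, 25310892 to 25316150) and Os12g0601400 (chromosome 12, 25325554 to 25327111) lie next to each other among the members, 9404 bases apart. Os12g0601300 had 233.2 scaled reads in salt L-type, 362.7 in control L-type, 15.5 in salt S-type, 163.3 in control S-type, 638.2 in salt nodal and 755.2 in control nodal roots. Its neighbour Os12g0601400 had 122.3, 133.2, 11.6, 96.6, 399.3 and 508.5 scaled reads in the same 6 libraries. Both loci were highest in the nodal libraries, intermediate in L-type roots and lowest in salt S-type roots. The sources used here do not say how reads that match more than 1 family member were counted, so near-identical copies would make single values uncertain.

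IAA11, IAA13 and the Os12 pair, grouped after their values were seen, summed to 890.6 scaled reads in salt L-type, 1036.8 in control L-type, 77.4 in salt S-type, 1034.9 in control S-type, 2311.4 in salt nodal and 3210.0 in control nodal roots.

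**Figure D2:**
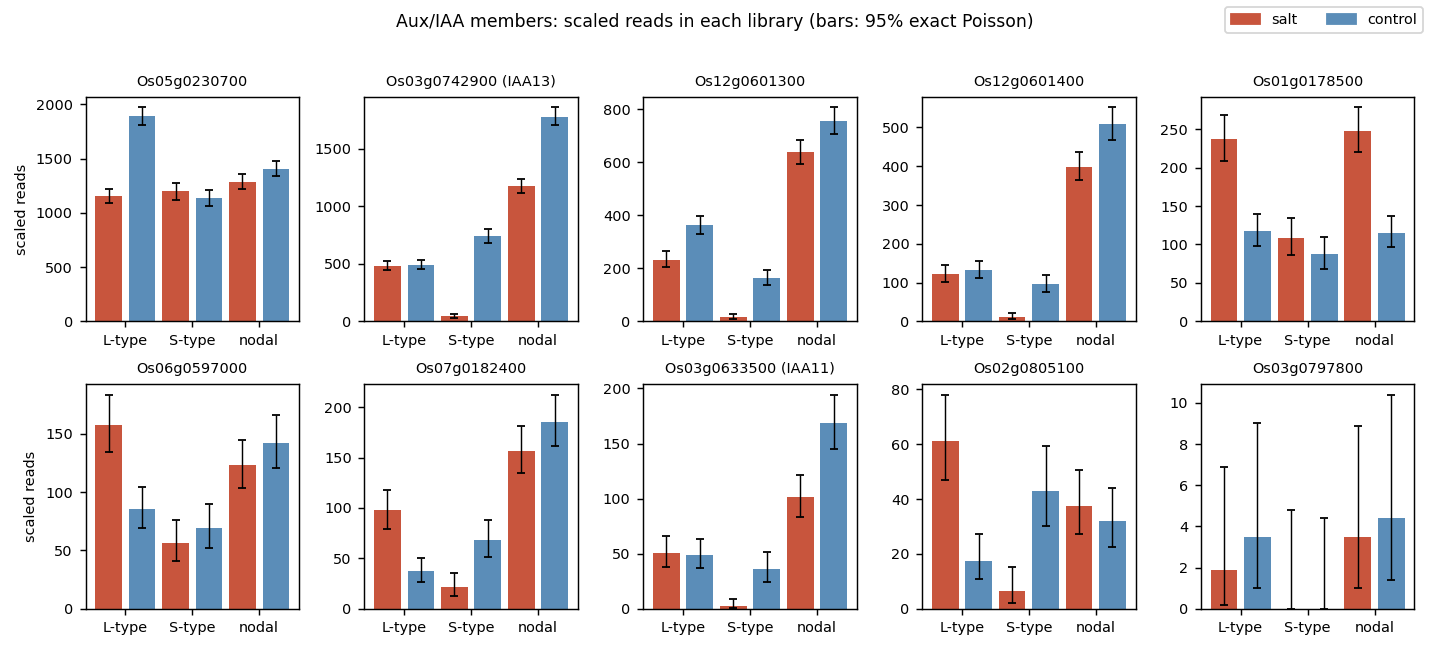
Scaled reads (y axis, linear, own scale per locus) of the 10 members in L-type, S-type and nodal roots, with salt in red and control in blue and lines for the 95% exact Poisson interval of 1 library. In IAA11, IAA13 and both Os12 loci the salt S-type bar is the lowest and both nodal bars are the highest, while Os05g0230700 stays within 1136.3 to 1891.0.

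Os05g0230700, the member with the most even level, had 1153.3 scaled reads in salt L-type, 1891.0 in control L-type, 1199.1 in salt S-type, 1136.3 in control S-type, 1287.8 in salt nodal and 1408.4 in control nodal roots. Control L-type roots stood highest, and the other 5 libraries lay within 1136.3 to 1408.4 scaled reads. Os01g0178500 (chromosome 1, 4073915 to 4076438) was high in 2 salt libraries, with 237.0 scaled reads in salt L-type against 117.4 in control L-type, 108.4 in salt S-type against 87.0 in control S-type, and 247.6 in salt nodal against 115.4 in control nodal roots. Its levels under control and in salt S-type roots had overlapping counting intervals.

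Os07g0182400 (chromosome 7, 4355210 to 4356572) had 97.5 scaled reads in salt L-type against 37.1 in control L-type, 21.9 in salt S-type against 68.0 in control S-type, and 156.9 in salt nodal against 185.5 in control nodal roots. The nodal libraries were highest, and salt L-type and control S-type roots came next. Os06g0597000 (chromosome 6, 23501972 to 23503491) had 157.7 scaled reads in salt L-type against 85.6 in control L-type, 56.8 in salt S-type against 69.2 in control S-type, and 122.9 in salt nodal against 142.0 in control nodal roots. Its S-type libraries were the lowest, and their counting intervals overlapped with each other and with control L-type roots.

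Os02g0805100 (chromosome 2, 34348581 to 34349843) was low throughout, with 61.2 scaled reads in salt L-type against 17.6 in control L-type, 6.5 in salt S-type against 42.9 in control S-type, and 37.5 in salt nodal against 31.9 in control nodal roots. Its values did not sort by root type. Os03g0797800 (chromosome 3, 33246010 to 33247318) had 2, 4, 4 and 5 reads in salt L-type, control L-type, salt nodal and control nodal roots and 0 reads in both S-type libraries, where the floor of 3 reads set for a count of 0 is 3.9 scaled reads under salt and 3.6 under control, and the upper ends of the plotted exact Poisson intervals, which are two-sided, are 4.8 and 4.4. It was too low for the fit, which therefore held 9 of the 10 members.

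Over the 10 members, the lowest library was salt S-type for 7 and the highest was control nodal for 6. Among the 8 members that averaged 50 scaled reads or more, 6 were lowest in salt S-type and 5 highest in control nodal roots. Of all 12229 loci with such an average, 23.2% were lowest in salt S-type and 23.0% highest in control nodal roots. The share of all loci with both nodal libraries above every lateral root library is not given here. That order in single members is therefore a description only.

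S-type against nodal roots asks which members distinguish the short laterals from the root axis whatever the treatment. IAA11 and the Os12 pair were lower in S-type roots, and the remaining 6 tested members lay below 0 without passing the test. By the limma fit, 3 of 9 tested members were lower and 0 higher at an adjusted p under 0.05 over 19469 loci, where 7.72% of all loci were lower and 11.3% higher. The median log2 difference was -2.11 over the 9 members and -0.037 over all loci.

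Against nodal roots, Os12g0601300 was 13.4-fold lower in S-type roots, a log2 difference of -3.74 ± 0.75 (SE, limma adjusted p = 0.0273). Os12g0601400 was 12.9-fold lower, with -3.69 ± 0.73 (SE, limma adjusted p = 0.0262). IAA11 was 11.5-fold lower, with -3.52 ± 0.88 (SE, limma adjusted p = 0.0445). Each of these 3 loci was lower in the S-type library under salt and under control. IAA13 had a log2 difference of -2.93 ± 0.92 (SE) that missed the threshold (limma adjusted p = 0.0772), and Os07g0182400 had -2.11 ± 0.73 (limma adjusted p = 0.095). Os06g0597000, Os02g0805100, Os01g0178500 and Os05g0230700 had fitted log2 differences of -1.06, -0.98, -0.79 and -0.21, with limma adjusted p-values of 0.14 to 0.715.

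Of the marker lists, those of division and green tissue also lay lower in S-type roots, and the root list went both ways. All 4 division loci lay below 0 (median log2 difference -3.23) and so did all 6 tested green-tissue loci (median -3.4), 1 of each passing the limma threshold. The green-tissue loci summed to 11.6 scaled reads in salt S-type against 1286.0 in salt nodal roots. Under control their sums were 20.3 in S-type and 57.7 in nodal roots, and 0 of them were eligible for the rule of size. Of the 4 root loci 1 was higher and 1 lower by limma. The lower one, Os02g0662000, had 1.3 scaled reads in salt S-type and 230.1 in control S-type against 5514.7 in salt nodal and 11200.9 in control nodal roots. The higher one, Os03g0107300, had 18139.4 and 9037.8 against 1365.4 and 851.1 in the same libraries. The part of these lists in the members' result was not tested. The 3 calls depended on the libraries in the fit. None of them held without the salt nodal or the control nodal library, which leaves 1 nodal library in the fit. Leaving out other libraries also changed which members passed, and DESeq2 added IAA13 and Os07g0182400. How many of all loci those fits called is not given here, so no gain in members is read from them. Over all alternatives the fitted log2 difference lay between -5.18 and -2.3 for Os12g0601300, between -5.04 and -2.33 for Os12g0601400 and between -5.03 and -2.01 for IAA11.

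**Figure D3:**
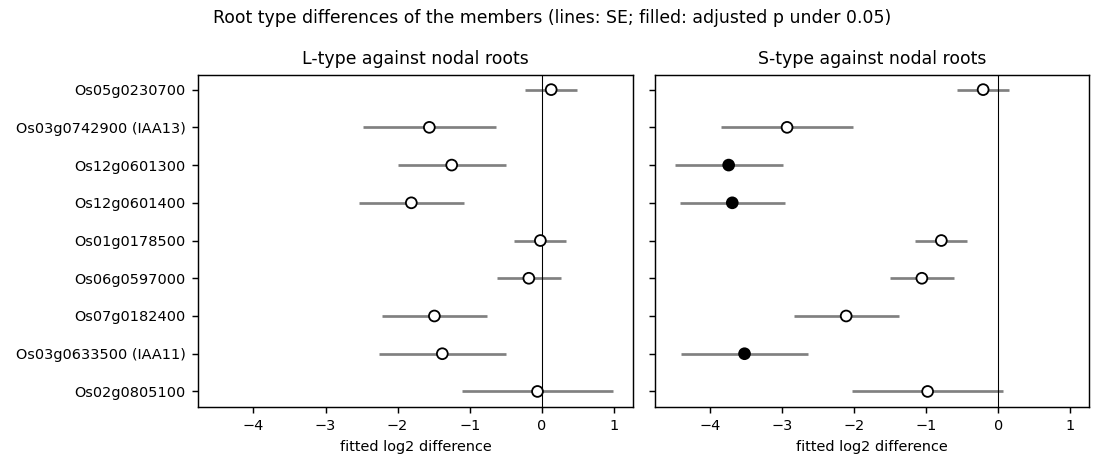
Fitted log2 difference (x axis) of the 9 tested members (y axis) in L-type against nodal roots (left) and S-type against nodal roots (right), with lines for the SE and filled points for an adjusted p under 0.05 (limma). The 3 filled points, IAA11 and the Os12 pair, lie between -3.74 and -3.52 in the right panel.

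Within 1 treatment, members were counted by a rule of size: 2-fold or more on log2(scaled reads + 1), 50 or more scaled reads in the library with the larger value, and a counting interval of the ratio that leaves out 1. Eligible loci are those that reach this minimum. In salt S-type against salt nodal roots 7 of 8 eligible members were lower and 0 higher (22.7% of all eligible loci were lower and 24.9% higher), as were 4 of 4 division and 5 of 5 eligible green-tissue loci. In control S-type against control nodal roots 6 of 8 eligible members were lower and 0 higher (19.6% of loci lower and 27.3% higher), and 3 of 4 division loci were lower. For IAA11, IAA13, the Os12 pair and Os07g0182400 the folds were larger under salt, with counting intervals that did not meet those under control. These intervals cover counting error only, and the difference between treatments was not tested. Os07g0182400 was 7.15-fold lower under salt (4.34 to 12.5) and 2.73-fold lower under control (2.03 to 3.73). IAA13 was 24.6-fold lower in salt S-type than in salt nodal roots (17.7 to 35.0) and 2.4-fold lower in control S-type than in control nodal roots (2.2 to 2.64). Os12g0601300 was 41.2-fold lower under salt (23.4 to 80.1) and 4.62-fold lower under control (3.86 to 5.58). Os12g0601400 was 34.4-fold lower under salt (17.9 to 75.7) and 5.27-fold lower under control (4.17 to 6.73). IAA11 had a ratio of 0.0255 under salt (0.00305 to 0.0943), resting on 2 reads, and of 0.212 under control (0.139 to 0.313).

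L-type against nodal roots gave smaller differences in the same direction for most members, and none passed the test. It shares its nodal libraries with the S-type comparison, so the pair are not independent. The limma fit called 0 of 9 members and 0.0% of loci (3198 loci and 1 member, Os12g0601400, at an unadjusted p under 0.05); edgeR and DESeq2 also called 0 members, DESeq2 calling 964 loci. The median log2 difference was -1.25 over the members and 0.018 over all loci, with 8 of 9 members below 0. Os12g0601400 had the most negative value, -1.81 ± 0.73 (SE, limma adjusted p = 0.303), and IAA13 had -1.56 ± 0.92 (limma adjusted p = 0.457). Without either S-type library these 2 members passed, as did 1828 loci without salt S-type and 1781 without control S-type roots. The division loci lay below 0 here too, 4 of 4 with a median of -0.98 and 0 called, and the green-tissue loci had 4 of 6 below 0 (median -0.76); their part was not tested.

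By the rule of size, 3 of 9 eligible members were lower in salt L-type than in salt nodal roots (10.5% of eligible loci) and 5 of 8 in control L-type than in control nodal roots (19.1%); 0 were higher in either, where 12.0% and 17.9% of eligible loci were. Of the division loci 4 of 4 were lower under salt and 0 under control, and of the green-tissue loci 3 of 5 eligible were lower under salt. IAA13 and both Os12 loci met it in both treatments. Under salt IAA13 was 2.42-fold lower (2.18 to 2.69), Os12g0601300 2.74-fold lower (2.36 to 3.18) and Os12g0601400 3.26-fold lower (2.68 to 4.0). IAA11 was 3.47-fold lower in control L-type than in control nodal roots (2.56 to 4.78), and 2.0-fold lower under salt (1.43 to 2.82), where its log2 difference of -0.98 fell just short. Os07g0182400 was 5.0-fold lower in control L-type than in control nodal roots (3.58 to 7.15) and 1.61-fold lower under salt (1.26 to 2.07).

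L-type against S-type roots compares the longer with the short laterals, using the same lateral root libraries as the comparisons with nodal roots. All 9 tested members had fitted differences above 0, with a median of 0.91 against 0.021 over all loci, but the limma fit called 0 members and 0.0103% of loci (4260 loci and 2 members, both Os12 loci, at an unadjusted p under 0.05). edgeR and DESeq2 called 0 members too. The division loci had 4 of 4 fitted differences above 0 (median 2.27) and the green-tissue loci 6 of 6 (median 2.88), and their part was not tested. By the rule of size 8 of 9 eligible members were higher in salt L-type than in salt S-type roots (15.6% of eligible loci), with ratios of 2.19 to 19.6, the last for IAA11 (5.17 to 166.0); 4 of 4 division and 3 of 3 eligible green-tissue loci were higher as well. In control L-type against control S-type roots 1 of 7 eligible members, Os12g0601300, was higher (11.3% of eligible loci), with a ratio of 2.22 (1.83 to 2.71), as was 1 of 4 division loci. None was lower in either treatment (18.7% and 23.2% of eligible loci), and the difference between treatments was not tested. Without the control S-type library, which leaves 1 S-type library, the fit called some members higher. How many of all loci it called is not given here.

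Salt against control addresses the response to the treatment in each root type. Fitted over all root types, 0 of 9 members and 0.0% of loci passed (limma; 2500 loci and 1 member, Os01g0178500, at an unadjusted p under 0.05). With edgeR 0 loci passed, and with DESeq2 381, among them 0 members. The fitted median was -0.25 for the members and -0.023 for all loci.

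In S-type roots 4 of the 10 members were lower in the salt library and 0 higher, while 12.7% of the 12408 eligible loci were lower and 5.04% higher; 7 members reached the minimum of 50 scaled reads. IAA13 was 15.5-fold lower in salt than in control S-type roots (11.1 to 22.2). Os12g0601300 was 10.5-fold lower (5.85 to 20.9), Os12g0601400 8.31-fold lower (4.17 to 18.8) and Os07g0182400 3.1-fold lower (1.78 to 5.68). IAA11, with 2 reads in salt S-type and 30 in control S-type roots, had a ratio of 0.0722 (0.00836 to 0.284), and Os02g0805100 had 0.15 (0.0461 to 0.384); both were under the minimum. Os05g0230700, Os06g0597000 and Os01g0178500 had log2 changes within 1 of 0. The median log2 change was -2.07 over all 10 members, eligible or not, and -0.012 over the eligible loci alone. These medians cover unlike sets, so their gap is not read as a result.

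All 4 division loci were lower in the salt S-type library by the same rule, their sum being 31.0 scaled reads in salt S-type and 418.5 in control S-type roots. Of the 4 root loci 2 were lower and 1 higher, and the 7 green-tissue loci summed to 11.6 scaled reads in salt S-type and 20.3 in control S-type roots, with 3 at 0 in salt S-type roots. The part of these in the members' result was not tested.

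In L-type roots 3 of 9 eligible members were higher in the salt library and 0 lower (16.7% of 12928 eligible loci were higher and 11.4% lower). Os02g0805100 had a ratio of 3.47 (2.07 to 6.05), Os07g0182400 of 2.63 (1.82 to 3.86) and Os01g0178500 of 2.02 (1.63 to 2.51). IAA11 had 50.6 scaled reads in salt L-type against 48.5 in control L-type roots, and IAA13 had 484.5 against 492.4. For IAA13 the authors' FPKM differed more, with 272.0 in salt L-type against 417.0 in control L-type roots. The median log2 change was 0.02 over all 10 members, eligible or not, and -0.074 over the eligible loci alone. Os01g0178500 stood at the edge of the rule, and 2 members remained in the count under library totals, the authors' size factors or median-of-ratios factors. In the same library the green-tissue loci summed to 509.3 scaled reads, against 73.2 in control L-type roots, and the division loci to 330.6 against 753.6; their part was not tested.

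In nodal roots 1 of 8 eligible members, Os01g0178500, was higher in the salt library, with a ratio of 2.15 (1.74 to 2.66), and 0 were lower (13.1% of 12885 eligible loci were higher and 11.9% lower). It was not counted with median-of-ratios or the authors' size factors. IAA11 had 101.1 scaled reads in salt nodal against 168.6 in control nodal roots and IAA13 had 1172.7 against 1777.6, neither reaching 2-fold. The median log2 change was -0.24 over all 10 members, eligible or not, and -0.065 over the eligible loci alone. Here the green-tissue loci summed to 1286.0 scaled reads in salt nodal against 57.7 in control nodal roots, and this was not tested as a part of the result.

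**Figure D4:**
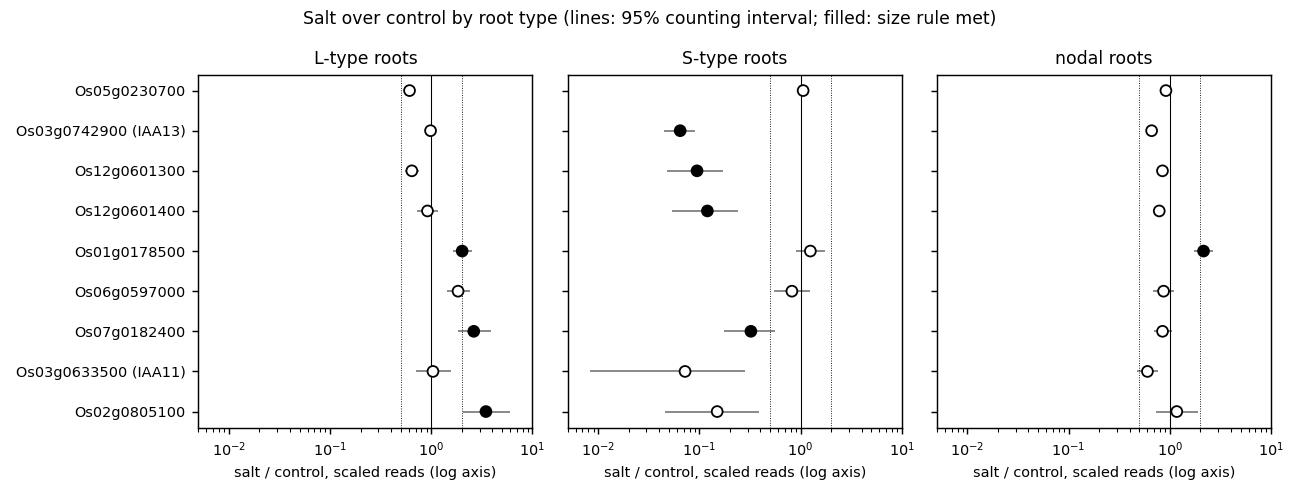
Ratio of salt over control scaled reads (x axis, log scale) for 9 members (y axis) in L-type, S-type and nodal roots, with lines for the 95% counting interval, filled points for the rule of size and dotted lines at 2-fold. The 4 filled points left of 1 are all in S-type roots, and those right of 1 are in L-type roots (3) and nodal roots (1).

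Likeness of pattern was measured by Pearson's r of log2(scaled reads + 1) over the 6 libraries, among loci averaging 50 scaled reads or more; the 6 points share root types and treatments, so r is a description. IAA11 was closest to Os12g0601400 among the members (r = 0.99), IAA13 to IAA11 (0.978) and Os12g0601300 to IAA11 (0.988). Os07g0182400 was closest to Os12g0601400 (0.9) and Os06g0597000 to Os07g0182400 (0.833). The remaining members stood apart, since Os01g0178500 reached 0.703 with Os06g0597000, and Os05g0230700 reached only 0.388, with Os12g0601300. The division loci had r of 0.868 to 0.974 with IAA11 and 0.816 to 0.969 with IAA13. With Os12g0601300 they had 0.9 to 0.982 and with Os12g0601400 0.868 to 0.953. Their r was lower with Os07g0182400 (0.601 to 0.798) and Os06g0597000 (0.55 to 0.7). It was also lower with Os05g0230700 (0.278 to 0.685) and Os01g0178500 (0.073 to 0.311). Of all 12228 loci compared, the closest to IAA11 were Os03g0210500 and Os07g0166700 (0.997 each), and the closest to IAA13 were Os11g0614400 (0.998) and Os10g0498900 (0.997).

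Among the other auxin loci, the ARF locus Os04g0671900 was the closest to IAA11 (0.952), Os12g0601300 (0.965) and Os12g0601400 (0.937). It had 184.4 scaled reads in salt L-type against 172.9 in control L-type, 23.2 in salt S-type against 70.3 in control S-type, and 223.2 in salt nodal against 247.6 in control nodal roots. For IAA13 the closest was another Aux/IAA locus, Os03g0633800 (0.927), and for Os01g0178500 it was the Aux/IAA locus Os02g0817600 (0.973). Os07g0182400 was closest to the ARF locus Os02g0557200 (0.948), Os06g0597000 to the receptor locus Os04g0395600 (0.872) and Os05g0230700 to Os03g0254700 (0.835), which is listed with the corepressors.

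The remaining Aux/IAA family did not move as 1 block in S-type against nodal roots. Members and lists were chosen with earlier results of these data known, so a difference between them is a description only. Of 21 other Aux/IAA loci 16 were tested, with a median log2 difference of -0.42. In the S-type libraries limma called 2 of the 16 higher and 5 lower, where 11.3% of all tested loci were higher and 7.72% lower. Of the 9 tested members 3 were lower, so lower calls were not particular to the members. Os02g0228900 was lower, with 0.0 scaled reads in salt S-type and 7.2 in control S-type against 63.6 in salt nodal and 82.5 in control nodal roots (limma adjusted p = 0.0195). Os06g0166500 was higher, with 533.1 scaled reads in salt S-type and 739.2 in control S-type against 70.6 in salt nodal and 64.8 in control nodal roots (limma adjusted p = 0.0298). Within the whole family of 31 loci there were members with opposite orders of root types.

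Of the lists further up and down the pathway, only the ARF list had calls in both directions. Over all tested loci 11.3% were higher and 7.72% lower in S-type roots. Of 5 receptor loci of the TIR1/AFB family, which bind auxin and the Aux/IAA proteins, 1 was higher in S-type roots and 0 were lower (median -0.61). Os11g0515500 was the higher one, with 420.8 scaled reads in salt S-type and 313.6 in control S-type against 116.0 in salt nodal and 124.2 in control nodal roots (limma adjusted p = 0.029). Of 22 tested ARF loci 2 were higher and 5 lower (median -0.08). Os04g0519700 was higher, with 777.1 scaled reads in salt S-type and 553.2 in control S-type against 53.2 in salt nodal and 61.2 in control nodal roots (limma adjusted p = 0.00844). Os02g0141100 was lower, with 12.9 scaled reads in salt S-type and 20.3 in control S-type against 296.4 in salt nodal and 102.9 in control nodal roots (limma adjusted p = 0.0198).

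Among 4 loci for corepressors and a cyclophilin, an isomerase that acts on Aux/IAA proteins, 1 was higher and 0 lower (median 0.11). None of the 5 GH3 loci, whose enzymes join auxin to amino acids, passed the limma threshold, with a median of -2.01. An unadjusted limma p under 0.05 was reached by 3 of them and by 7184 of all 19469 tested loci. Of 6 tested auxin synthesis loci 1 was higher and 0 lower (median -0.3). In the other 3 fitted contrasts, limma called 0 loci of any of these lists. At an unadjusted limma p under 0.05, each list had 0 or 1 loci in L-type against nodal roots and 0 to 2 in salt against control. Of all 19469 tested loci 3198 and 2500 had such a p. In L-type against S-type roots 10 of 16 other Aux/IAA, 7 of 22 ARF, 2 of 5 GH3 and 1 of 6 synthesis loci had one. It was 0 in the remaining lists, 2 of 9 for the members and 4260 for all tested loci.

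**Figure D5:**
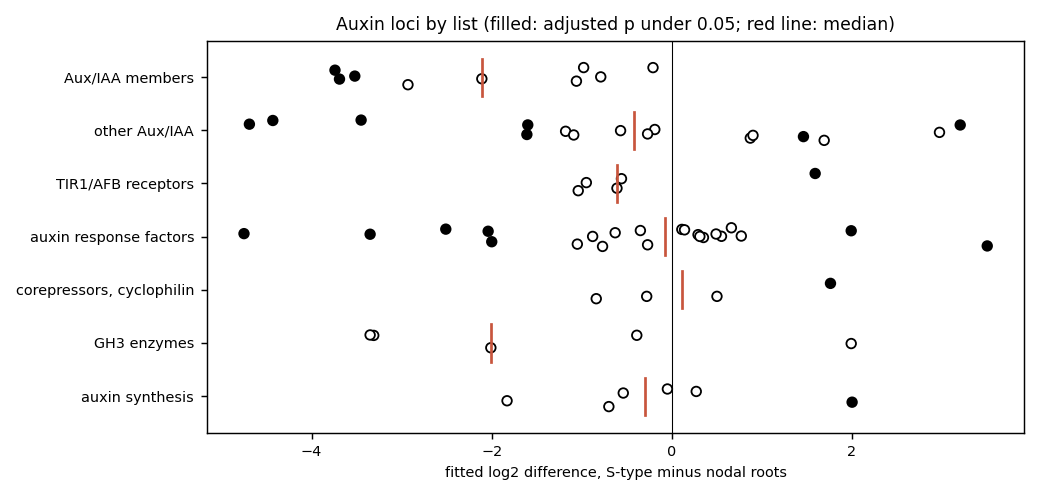
Fitted log2 difference of S-type minus nodal roots (x axis) for the tested loci of 7 auxin lists (y axis), with filled points for an adjusted p under 0.05 (limma) and a red line for each median. All 9 members lie left of 0, with a median of -2.11, while the other Aux/IAA and ARF loci lie on both sides. The members and lists were chosen with earlier results of these data known.

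In salt against control S-type roots, loci of these lists met the rule of size in both directions (over all eligible loci 5.04% were higher and 12.7% lower). Other Aux/IAA loci had 1 higher and 3 lower of 12 eligible, ARF loci 3 higher and 2 lower of 18, GH3 loci 0 higher and 1 lower of 2, and synthesis loci 1 higher and 1 lower of 3. None of the 5 receptor or 4 corepressor and cyclophilin loci met the rule there. In L-type roots 2 of 12 eligible other Aux/IAA, 1 of 5 receptor, 2 of 18 ARF, 2 of 2 GH3 and 2 of 3 synthesis loci were higher. Of the 4 corepressor and cyclophilin loci 0 were higher, and 0 loci of these lists were lower (16.7% and 11.4% of all eligible loci were higher and lower). Os02g0817600, an Aux/IAA locus outside the set, was higher under salt in all 3 root types, with 415.7 scaled reads in salt L-type against 136.8 in control L-type, 113.6 in salt S-type against 54.8 in control S-type and 395.8 in salt nodal against 149.1 in control nodal roots.

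The authors' deposited table tested 135 of the 150 comparisons of the 10 members between 2 libraries, and marked 0 of them as significant, against 0.411% of all comparisons it tested.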

How the data were processed

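RNA was sequenced from IR29 roots in 6 libraries, 1 per group. The submitters' processing notes name Cuffdiff 2.2.1, Cufflinks 2.2.1, TopHat2 2.0.11 with Bowtie, and Trimmomatic 0.32, and genome build IRGSP-1.0; coordinates are printed as deposited, on that build. Per the labels' protocols the libraries were strand-specific; the sources used here do not say how strand entered the counting. The authors deposited a signal per locus, which is a count divided by 1 size factor per library. They also deposited FPKM values for each of 15 pairs of libraries, with a p-value and a q-value per locus, per the file headers.

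The smallest step of the signal in a library was taken as 1 read, which gave whole reads, within 0.01, for 99.897% to 99.977% of values above 0. Reads were scaled by TMM factors to 4013580 per library. limma 3.58.1 (R 4.3.3) fitted log2(scaled reads + 1) with root type and treatment, additive, in all 6 libraries, with 2 residual degrees of freedom, for the 19469 loci that had 10 reads or more in 2 libraries or more. Benjamini-Hochberg adjustment ran over all of them, two-sided, at 0.05. Fold changes on this scale understate the change of low loci. Differences between 2 libraries were counted by the rule of size, with exact conditional binomial (Clopper-Pearson) 95% intervals from scipy 1.17.1. Those intervals, the Poisson intervals and the floor of 3 reads for a library at 0 cover counting error only, and reads from PCR are not independent molecules. The fit was tested on simulated data. edgeR 4.0.16, DESeq2 1.42.0, other scalings, pseudocounts and filters, and leaving out each library were alternatives.

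The members and lists were chosen with earlier results of these data known. The lists come from general knowledge of rice and no annotation was at hand to check their membership; of 94 listed IDs 0 matched the reference table of names, and 1 was not in the count table. All members are named. Loci of other lists were to be named where they passed the fit or had the 2 largest salt changes; since no ID had a symbol, at most 2 higher and 2 lower loci of a list are printed for a comparison, by ID, a departure chosen after the data were seen. For each member the closest other member and listed locus were found, and for IAA11 and IAA13 the 2 closest of all loci.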

Additional observations from a re-analysis of the deposited data

Results flagged for a closer look

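For 2 members the salt change in L-type roots had the opposite direction to that in S-type roots with both 95% counting intervals leaving out a ratio of 1; 3 more members lay on opposite sides of 1 with at least 1 interval that held it (Os06g0597000, IAA11 and Os05g0230700). With 1 library per group the differences were not tested. Os02g0805100 had a salt over control ratio of 3.47 (95% counting interval 2.07 to 6.05) in L-type roots and of 0.15 (0.0461 to 0.384) in S-type roots, with 5 reads in the salt S-type library. Os07g0182400 had a ratio of 2.63 (1.82 to 3.86) in L-type roots and of 0.323 in S-type roots, where the salt library was 3.1-fold lower (1.78 to 5.68).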

How the results depend on the processing

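Of 684 values recomputed for 66 single genes and comparisons, 630 kept their direction and side of the threshold or size, 15 newly passed, 12 no longer passed, 24 turned in sign and 3 moved. In S-type against nodal roots 3 members were lower, and this number changed with DESeq2 and when 1 library was left out. How many of all loci those fits called is not given here. IAA11 kept its call in 7 of 14 alternatives (adjusted p 0.000317 to 0.316), Os12g0601300 in 11 (4.97e-05 to 0.222) and Os12g0601400 in 12 (3.98e-05 to 0.225). With 1 library left out, 0 to 2 members passed in L-type against nodal roots and 0 to 5 in L-type against S-type roots. Each of these fits left 1 library of a root type. The loci that passed beside the members in L-type against nodal roots are given with that comparison. For L-type against S-type roots the number of all loci that passed is not given here. These counts are therefore not read as a result about the members. For salt in nodal roots, 0 members met the rule of size with median-of-ratios factors and 0 with the authors' size factors. A minimum of 10 scaled reads gave 6 members lower for salt in S-type roots, against 4. The share of all loci that were lower at that minimum is not given here. The cause of these changes was not tested.

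Log2 differences that turned in sign were near 0 or rested on 1 library. In L-type against nodal roots, Os01g0178500 had 0.03 with library totals, and Os02g0805100 had 0.19 with edgeR and 0.14 with DESeq2. Leaving out 1 library gave ranges in S-type against nodal roots of -2.75 to 0.79 (Os02g0805100) and -0.46 to 0.04 (Os05g0230700). In L-type against nodal roots they were -0.24 to 0.2 (Os01g0178500), -1.52 to 1.39 (Os02g0805100), -0.21 to 0.48 (Os05g0230700) and -0.74 to 0.37 (Os06g0597000). In L-type against S-type roots they were -0.86 to 2.68 (Os02g0805100), -0.44 to 3.17 (IAA13), -0.0 to 0.68 (Os05g0230700) and -0.52 to 1.76 (Os07g0182400). For salt against control they were -1.17 to 0.98 (Os02g0805100), -0.24 to 0.33 (Os06g0597000) and -0.91 to 0.57 (Os07g0182400).

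Scaling by library totals moved the median log2 difference of all loci to -0.448 in S-type against nodal roots, where TMM gave -0.037, and to 0.487 in L-type against S-type roots, where TMM gave 0.021. No paired analysis was possible because the labels give no replicate numbers to serve as a block; root type and treatment are themselves the terms of the additive fit. Depth limits IAA11 and Os03g0797800 in S-type roots most, at 2 reads or fewer in the salt library.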
